A study of Homo sapiens with 12 samples.

Results

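Receptor tyrosine kinase genes other than those of the Eph receptors were followed in HMC3 cells. The members are the 34 genes of a fixed list of receptor tyrosine kinases (EGFR to MUSK, with Eph receptors and PDGFRB left out). They were found by gene symbol among the 36315 genes to which transcripts were paired. No measured value served as a filter, but the list was chosen with earlier results of these data known. HMC3 is an immortalized human line that is used as a model of microglia. All cells received either negative control siRNA or ephrin-B1 siRNA for 48 h, and then Ctrl-Fc or EphB2-Fc at 2 ug/mL, pre-clustered with an antibody to human IgG, for 24 h. This made 4 groups with 3 libraries each. Cells that received the negative control siRNA are called Ctrl when given Ctrl-Fc and EphB2 when given EphB2-Fc. Cells with the knockdown are called ephrin-B1 siRNA under Ctrl-Fc, and EphB2 + ephrin-B1 siRNA, or the combined group, under EphB2-Fc. Total RNA was depleted of rRNA, sequenced as paired ends of 100 bases and quantified per transcript by the authors. The comparisons ask what clustered EphB2, which binds ephrin-B on the cell surface, and the loss of ephrin-B1 do to the RNA of these receptors.

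Receptor tyrosine kinases are membrane proteins with a ligand-binding part outside the cell and a kinase domain inside it. Binding of a growth factor, or of collagen in the case of the discoidin domain receptors, brings receptor chains together, the kinase domains phosphorylate tyrosines on each other, and adaptor proteins dock there and start the RAS-ERK and PI3K pathways. In the brain, AXL and MERTK on microglia take part in the clearance of dying cells, whereas neurotrophin and ERBB receptors are best known from neurons and glia.

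Sequences are shown for the members on which the results turn, because several of them are made in more than 1 coding form. Each stretch below is coding sequence in GRCh38 that the form named in front of the colon contains and its partner form lacks. Capitals mark the stretch and lower case the 15 coding bases on either side of it in the spliced transcript, read 5′ to 3′.
KIT-201: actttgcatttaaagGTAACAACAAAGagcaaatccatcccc
MET-201: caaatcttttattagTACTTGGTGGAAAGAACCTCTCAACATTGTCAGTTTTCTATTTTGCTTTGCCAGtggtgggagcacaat
AXL-201: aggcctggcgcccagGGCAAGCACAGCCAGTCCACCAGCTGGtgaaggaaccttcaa
INSR-201: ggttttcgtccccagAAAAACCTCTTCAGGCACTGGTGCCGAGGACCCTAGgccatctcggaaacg
The KIT stretch (chr4:54726039-54726050, plus strand, 12 bases, at an exon end) is absent from KIT-202, which codes for 972 residues where KIT-201 codes for 976, and elsewhere each of these forms has 3 coding bases that the other lacks. The MET stretch (chr7:116759337-116759390, plus strand, 54 bases) separates MET-201 (1408 residues) from MET-202 (1390 residues). The AXL stretch (chr19:41239694-41239720, plus strand, 27 bases) separates AXL-201 (894 residues) from AXL-202 (885 residues), and the INSR stretch (chr19:7150497-7150532, minus strand, 36 bases) is an exon of INSR-201 (1382 residues) that is skipped in INSR-202 (1370 residues). The values of these forms follow after the gene levels.

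MET and KIT were the members that rose after ephrin-B1 siRNA, and the 250 bases before their RefSeq transcription start in GRCh38.p14 are therefore shown, with GGGCGG, the core of the GC box, in capitals.
MET: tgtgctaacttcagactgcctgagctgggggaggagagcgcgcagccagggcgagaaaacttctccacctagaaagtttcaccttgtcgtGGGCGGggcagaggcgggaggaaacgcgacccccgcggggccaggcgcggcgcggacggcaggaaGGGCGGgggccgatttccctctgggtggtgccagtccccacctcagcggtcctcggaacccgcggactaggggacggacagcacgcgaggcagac
KIT: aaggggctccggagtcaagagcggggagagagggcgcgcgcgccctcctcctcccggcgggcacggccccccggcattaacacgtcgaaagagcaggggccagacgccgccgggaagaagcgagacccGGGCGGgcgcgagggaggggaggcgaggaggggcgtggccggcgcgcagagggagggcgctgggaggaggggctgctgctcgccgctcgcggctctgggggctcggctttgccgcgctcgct
The MET window is chr7:116671946-116672195 (plus strand, 68.4% G or C) and the KIT window chr4:54657707-54657956 (plus strand, 76.4% G or C), where the median of all 35116 promoters was 58%. GGGCGG was searched on both strands and stood 2 times before MET and 1 time before KIT, and 42.6% of all promoters and 22 of the 31 member promoters at hand held it. TATAAA (10.7% of all promoters), TGANTCA (6.57%) and CACGTG (6.34%) were searched on both strands as well and were in neither window. A match of letters is a description of the window only.

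Libraries held between 13230689 and 25785591 estimated counts, of which 95.25% to 95.98% fell on transcripts paired with a gene. The target of the siRNA, EFNB1, which codes for ephrin-B1, checks the labels. It measured 20.4, 17.5 and 19.3 CPM (counts per M counts, scaled by TMM) in Ctrl and 15.6, 18.8 and 18.4 CPM in EphB2, against 7.1, 6.6 and 8.7 CPM with ephrin-B1 siRNA and 6.56, 6.03 and 6.38 CPM with EphB2 + ephrin-B1 siRNA. The log2 fold change was -1.35 (SE 0.129, edgeR adjusted p = 0.00124) without EphB2-Fc, so the knockdown was partial in every library. Of 11 microglial markers, 6 stayed under 1 TPM (a level per transcript length) in every library. P2RY12, CX3CR1, SPI1 and TYROBP had 15, 3, 11 and 2 counts in all 12 libraries together, AIF1 rounded to 0, and ITGAM reached at most 0.735 TPM. CSF1R lay at 1.49 to 2.83 TPM, and TMEM119, TREM2 and PTPRC reached at most 2.15, 1.76 and 1.01 TPM. The lysosomal marker CD68 lay at 18.9 to 32.1 TPM. Of 8 fibroblast markers COL1A1 (662 to 1203 TPM), THY1 (150 to 366 TPM) and COL1A2 (6.38 to 22.7 TPM) were present, DCN and FAP reached at most 2.75 and 1.98 TPM, and COL3A1, LUM and POSTN stayed under 1 TPM. Most defining microglial markers were thus near 0 or low in these libraries.

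In Ctrl, the members spanned levels from 398 to 0.0819 TPM, and AXL stood far above the rest. Of the 34 members, 14 had a mean of 10 TPM or more, 8 lay between 1 and 10 TPM and 12 under 1 TPM. AXL, which binds GAS6 and belongs to the TAM receptors of cell clearance, measured 398 ± 33.2 TPM (SD, n = 3) and held 43.4% of the summed TPM of the members. PTK7, a Wnt co-receptor whose kinase domain is inactive, followed with 107 ± 18.8 TPM, and MET, the receptor of hepatocyte growth factor, with 67.7 ± 13.9 TPM. These 3 were apart from each other, since the ranges over Ctrl libraries of AXL and PTK7 and of PTK7 and MET did not overlap.

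Below MET, neighbours in the order mostly overlapped. ERBB2, the ERBB member without a ligand of its own, measured 55.8 ± 10.4 TPM, the collagen receptor DDR1 40.4 ± 12.1, FGFR1 38.8 ± 12.4, IGF1R 32.8 ± 11.8 and RYK, a Wnt receptor with an inactive kinase, 32.3 ± 6.34 TPM. FGFR4 (26.3), EGFR (23.5), TYRO3 (19.2), ERBB3 (18.6), FLT4 (13) and FGFR3 (11.3) completed the members above 10 TPM. From MET down to INSR (7.87 TPM), the ranges of each pair of neighbours overlapped, so this stretch of the order is not resolved by 3 libraries. INSR was above ROR2 (4.66 TPM), and ROR2 was above MERTK (2.16 TPM).

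The 12 members under 1 TPM in Ctrl were MUSK, FLT1, DDR2, RET, NTRK2, ERBB4, ALK, KDR, NTRK3, FGFR2, TEK and MST1R. KDR, the main VEGF receptor of endothelium, had 24, 0 and 0 counts in Ctrl and 74 counts over the 12 libraries, and the counts of 0 in Ctrl replicates 2 and 3 allow up to 0.155 and 0.157 CPM. MST1R and ERBB4 had 37 counts each and TEK 48. All 34 members passed the filter of 10 counts over the 12 libraries, although at these depths a change of ERBB4, MST1R or TEK was hardly detectable.

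**Figure D1:**
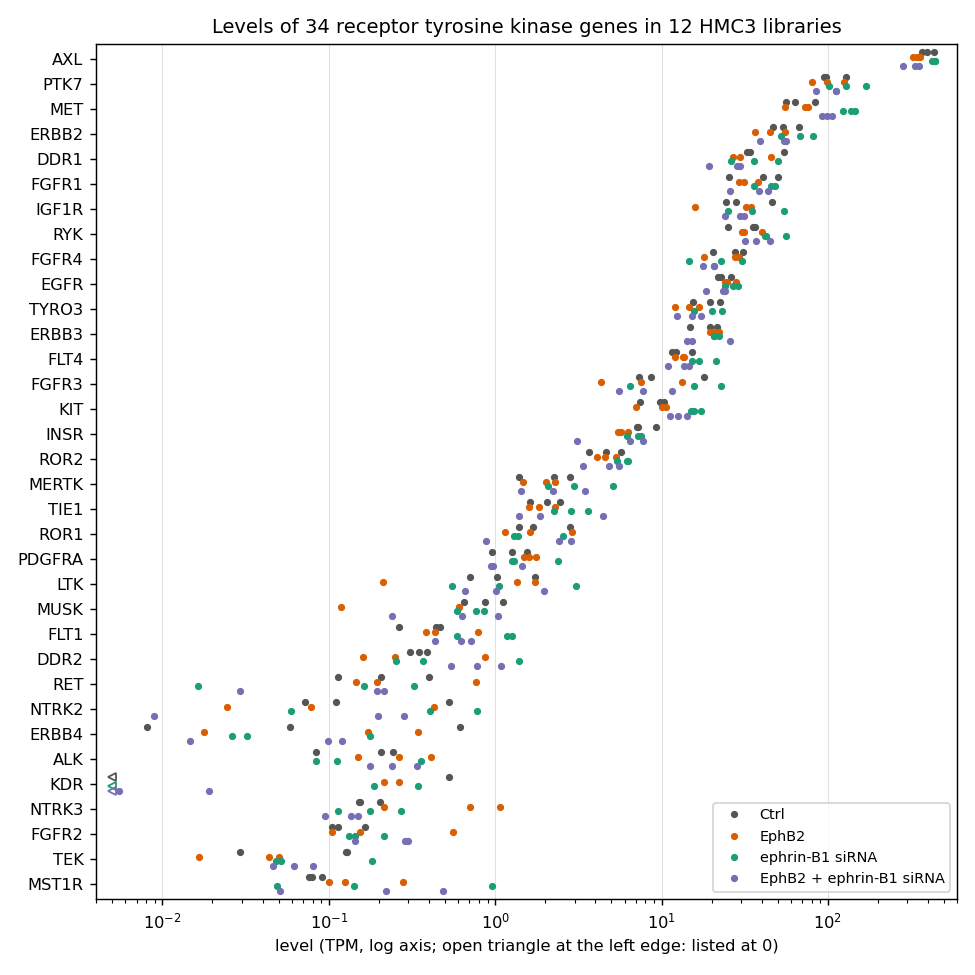
Level of each of the 34 members in each of the 12 libraries (TPM, log axis), 1 point per library, coloured by group and ordered by the mean in Ctrl. AXL lies between 281 and 440 TPM in all libraries and 12 members lie under 1 TPM on average in Ctrl.

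The forms printed above differed in share, and their shares are estimates of kallisto, which divides reads among transcripts. KIT-201, with the KIT stretch, took 70.1% to 83.1% of the counts of KIT-201 and KIT-202 over the 12 libraries, with a median of 75.6%. MET-201 was the minor form, at 7.47% to 13.4% of MET-201 and MET-202, so that most MET RNA was assigned to the form that lacks the 54 bases. AXL-201 took 55.3% to 61.2% of its pair, the narrowest range of the 4.

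INSR-201, which contains the exon favoured in liver and other metabolic tissues, took 64.0%, 64.6% and 66.2% of its pair in Ctrl, in ascending order. The 3 libraries of EphB2 + ephrin-B1 siRNA lay at 75.4%, 79.9% and 80.7%, above all Ctrl libraries, while EphB2 (61.4% to 82.6%) and ephrin-B1 siRNA (67.7% to 81.3%) were spread more widely. No test was run on these shares. For KIT, MET and AXL, the ranges of all 4 groups overlapped with Ctrl. EGFR was nearly a 1-transcript gene, with 91.8% to 95.6% of its counts on EGFR-201, whereas ROR1 was divided between the full-length ROR1-201 (937 residues, 58.1% of pooled counts) and ROR1-202 (393 residues, 39.7%).

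**Figure D2:**
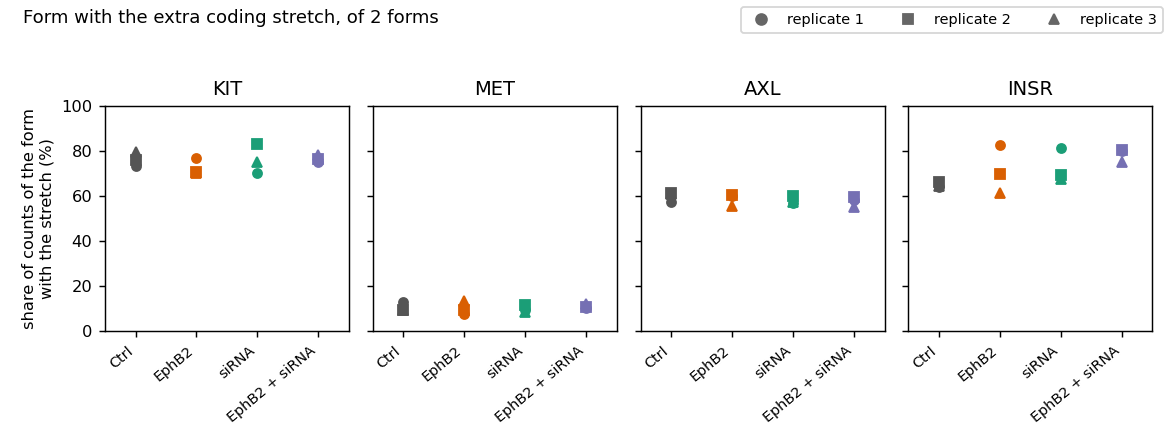
Share (%) of the form with the printed coding stretch among the counts of both forms, for KIT, MET, AXL and INSR, 1 point per library, by group and replicate number. KIT lies at 70.1% to 83.1%, MET at 7.47% to 13.4%, and INSR in EphB2 + ephrin-B1 siRNA lies above Ctrl.

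The strongest differences among members followed the siRNA. With ephrin-B1 siRNA against Ctrl, 2 of 34 members, MET and KIT, passed the test and both rose (background: 1.81% of all genes tested were called). The median log2 fold change of the members was 0.17 and that of all genes -0.003. The CPM ranges of the groups did not overlap for 5 members (MET, KIT and MERTK higher, FGFR4 and DDR1 lower), where 18.1% of all genes had ranges without overlap. In bulk RNA, fewer cells of a kind and less RNA per cell cannot be told apart.

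MET measured 310, 266 and 273 CPM in Ctrl for replicates 1, 2 and 3, and 305, 272 and 283 CPM in EphB2. It measured 458, 518 and 483 CPM with ephrin-B1 siRNA and 426, 494 and 437 CPM with EphB2 + ephrin-B1 siRNA. All 6 libraries with ephrin-B1 siRNA were above all 6 with negative control siRNA. The rise was 1.72-fold without EphB2-Fc (log2 0.78, SE 0.0871, adjusted p = 0.00211) and 1.58-fold with it (log2 0.66, SE 0.0869, adjusted p = 0.0155, EphB2 + ephrin-B1 siRNA vs EphB2), and MET was higher in 3 of 3 pairs of the same replicate number each time. EphB2-Fc alone left MET at a log2 difference of 0.02 (SE 0.0867, adjusted p = 0.99).

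KIT, the receptor of stem cell factor (KITLG), measured 31.4, 33.6 and 30.2 CPM in Ctrl and 33.0, 33.2 and 33.3 CPM in EphB2. With ephrin-B1 siRNA it measured 41.7, 58.4 and 51.2 CPM, and with EphB2 + ephrin-B1 siRNA 43.1, 55.9 and 45.6 CPM. Here too the 6 knockdown libraries were above the 6 others. KIT rose 1.59-fold (log2 0.67, SE 0.124, adjusted p = 0.0226) against Ctrl, and the difference with EphB2-Fc present was 0.54 (SE 0.124, adjusted p = 0.0914; 0.00109 with replicate number as a block).

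The calls were tested with libraries left out. The MET calls against Ctrl held when any 1 library was left out, but were lost without replicate 2 or replicate 3 of every group. For ephrin-B1 siRNA vs Ctrl its log2 values were then 0.69 (adjusted p = 0.0544) and 0.76 (0.873), and 13 and 0 of all genes were called. Limma on log2 TPM with a pseudocount of 0.1 or 1 did not call MET for ephrin-B1 siRNA vs Ctrl (adjusted p of 0.138 and 0.19). It called 1 and 0 of all genes there. For both treatments vs Ctrl limma did not call MET either (0.363 and 0.367), and it called 8 and 4 genes. The KIT call for ephrin-B1 siRNA vs Ctrl was lost without Ctrl replicate 1 (adjusted p = 0.0613), 2 (0.0731) or 3 (0.124) and without ephrin-B1 siRNA replicate 2 (0.0854) or 3 (0.104), while its log2 fold change stayed between 0.55 and 0.79 whichever library or replicate number was left out. Of 8 lists of cell type markers, 1 had a summed TPM with ephrin-B1 siRNA outside its range in Ctrl. It was that of 8 mural and smooth muscle markers, all of them above 1 TPM in some library, at 205 to 250 in Ctrl and 270 to 310 with ephrin-B1 siRNA. Its part in the results was not tested.

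With both treatments against neither, MET and KIT were again the 2 members called (background: 2.01%), with log2 fold changes of 0.68 (SE 0.087, adjusted p = 0.00387) and 0.60 (SE 0.124, adjusted p = 0.032). The ranges of 10 of 34 members did not overlap with Ctrl, where 18.3% of all genes had such ranges. This comparison uses the same Ctrl libraries as the one above and is no independent repeat of it. The KIT call was lost on leaving out Ctrl replicate 1 (adjusted p = 0.083), 2 (0.0852) or 3 (0.151), EphB2 replicate 3 (0.0602), ephrin-B1 siRNA replicate 3 (0.0609) or EphB2 + ephrin-B1 siRNA replicate 2 (0.102) or 3 (0.0852), with log2 values of 0.48 to 0.68 over all libraries and replicate numbers left out. The summed TPM of the 8 fibroblast markers was 1235 to 1483 in Ctrl and 824 to 1079 in the combined group, and that of 6 astrocyte markers 18 to 25.8 and 11.9 to 17.5, while the mural sum overlapped (207 to 244). COL1A1 alone, at 662 to 1203 TPM over the 12 libraries, made up most of the fibroblast sum. The part of these marker lists in the results was not tested. For EphB2 + ephrin-B1 siRNA vs EphB2, MET was the 1 member called (background: 0.616%), and the ranges of 7 members did not overlap, where 14.5% of all genes had such ranges. That call was lost without EphB2 replicate 2 (0.0754) or 3 (0.0829) or EphB2 + ephrin-B1 siRNA replicate 2 (0.0553) or 3 (0.0803).

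**Figure D3:**
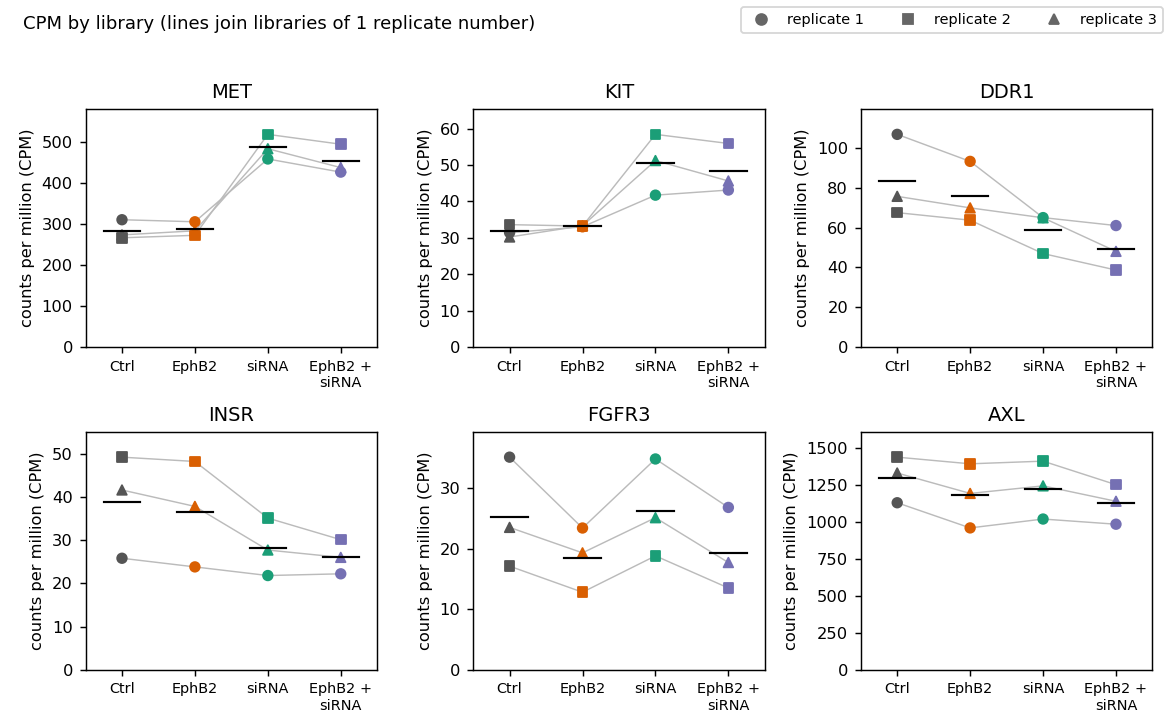
CPM of MET, KIT, DDR1, INSR, FGFR3 and AXL in each library, by group, with marker shape for the replicate number, lines joining libraries of the same number and black bars at group means (n = 3). MET and KIT are higher in the 6 libraries with ephrin-B1 siRNA, and DDR1, INSR, FGFR3 and AXL keep the same order of the replicate numbers in every group.

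The libraries of a replicate number came from the same experiment, and the replicate number was also put into the fit as a block. With the block, 8 of 34 members passed the test for ephrin-B1 siRNA vs Ctrl (background: 13.6%), 8 for EphB2 + ephrin-B1 siRNA vs Ctrl (background: 15.1%) and 9 for EphB2 + ephrin-B1 siRNA vs EphB2 (background: 9.93%). The members that joined MET and KIT are described by family, each with its adjusted p without and with the block. In a single set of data simulated from these libraries for EphB2 vs Ctrl, 200 genes were changed. The blocked fit recovered 189 and made 23 false calls (10.8% of its calls), more than the threshold allows. The fit without the block recovered 162 and made 0 false calls. Every replicate number was given a shared effect there, so the simulation cannot decide between the fits for replicate 3. Blocked values assume that replicate 3 is an experiment of its own kind, and this assumption was not tested. Deviations of its libraries from group means correlated at 0.05 to 0.38. That cannot decide the point, because a replicate number that lies between the others deviates little from group means. FGFR1 in replicate 3 (89.6, 86.6, 84.9 and 84.4 CPM) lay between the other replicate numbers in every group. IGF1R in replicate 3 was instead the highest in EphB2 (86.4 CPM) and the lowest in the combined group (67.2 CPM).

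Of the discoidin domain receptors, which bind collagens, DDR1 was lower in both knockdown groups, and DDR2 was higher in the combined group. DDR1 measured 107, 67.6 and 75.8 CPM in Ctrl, 93.4, 63.8 and 70.0 in EphB2, 65.1, 47.0 and 65.0 with ephrin-B1 siRNA and 61.1, 38.7 and 48.1 with EphB2 + ephrin-B1 siRNA. In CPM, the knockdown library was below its partner within each replicate number, and the groups did not overlap with Ctrl. The log2 difference was -0.50 (SE 0.218, adjusted p = 0.386; 0.000648 with the block) for ephrin-B1 siRNA vs Ctrl and -0.76 (SE 0.22, adjusted p = 0.12; 2.2e-05 with the block) for both treatments vs Ctrl, where DESeq2 called it without a block (-0.76, adjusted p = 0.0204). In TPM, DDR1 with ephrin-B1 siRNA (49.8, 26.1 and 36) overlapped with Ctrl (54.3, 32.8 and 34.1), and replicate 3 was higher. For that comparison edgeR with an offset for transcript length gave -0.32 (adjusted p = 0.595), and limma on log2(TPM + 1) gave -0.12 (0.916). For both treatments vs Ctrl they gave -0.52 (0.256) and -0.61 (0.708). DDR1 lies at chr6:30876421-30900156 in the MHC region, which has alternate copies in the reference, so its level is less certain than that of other members.

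DDR2 was scarce, with 1.87, 1.76 and 1.57 CPM in Ctrl, 2.06, 1.2 and 1.03 in EphB2, 3.26, 1.64 and 2.26 with ephrin-B1 siRNA and 4.17, 2.11 and 4.12 with EphB2 + ephrin-B1 siRNA. For ephrin-B1 siRNA vs Ctrl the groups overlapped, and the log2 difference of 0.47 (SE 0.352, adjusted p = 0.704; 0.376 with the block) passed neither test. The combined group was above Ctrl without overlap (log2 1.00, SE 0.349, adjusted p = 0.208; 0.0194 with the block). In CPM it was also above EphB2 without overlap, by 1.28 on the log2 scale (SE 0.353, adjusted p = 0.163; 0.00562 with the block). In TPM these ranges overlapped, and in replicate 1 the combined group (0.545) was below EphB2 (0.871).

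Of the insulin receptor family, INSR, which controls glucose uptake and growth, was lower in CPM in the knockdown groups within each replicate number. It measured 25.8, 49.2 and 41.6 CPM in Ctrl, 23.8, 48.2 and 37.8 in EphB2, 21.8, 35.1 and 27.7 with ephrin-B1 siRNA and 22.2, 30.1 and 26 with EphB2 + ephrin-B1 siRNA. The groups overlapped, since replicate 1 was low in each of them. The log2 difference was -0.47 (SE 0.28, adjusted p = 0.584; 0.00516 with the block) for ephrin-B1 siRNA vs Ctrl. In TPM, INSR with ephrin-B1 siRNA (7.49, 6.17 and 7.17) was below Ctrl (7.19, 9.29 and 7.12) in replicate 2 only. In the combined group (3.12, 6.45 and 7.7 TPM) INSR was below Ctrl in replicates 1 and 2. Its relative IGF1R measured 76.4, 61.9 and 76.2 CPM in Ctrl, 59.9, 51.9 and 86.4 in EphB2, 90.3, 85.9 and 74.3 with ephrin-B1 siRNA and 93.8, 76.4 and 67.2 with both. IGF1R passed no treatment test with or without the block over all libraries, but without replicate 3 in any group the blocked fit called it higher for ephrin-B1 siRNA vs Ctrl and for the combined group vs Ctrl and vs EphB2.

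Of the FGF receptors, FGFR3 was the 1 member that passed the blocked test for EphB2-Fc with either siRNA. It measured 35.1, 17.1 and 23.5 CPM in Ctrl and 23.4, 12.8 and 19.3 in EphB2, and 34.8, 18.8 and 25.1 with ephrin-B1 siRNA and 26.8, 13.5 and 17.7 with EphB2 + ephrin-B1 siRNA. It was lower with EphB2-Fc in 6 of 6 pairs, while the groups overlapped. The log2 difference was -0.44 (SE 0.334, adjusted p = 0.849; 0.00488 with the block) under negative control siRNA and -0.43 (SE 0.332, adjusted p = 0.838; 0.00292 with the block) under ephrin-B1 siRNA.

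FGFR4 measured 44.1, 38.2 and 37.3 CPM in Ctrl, 41.6, 37.8 and 43.6 in EphB2, 35.7, 27.0 and 29.8 with ephrin-B1 siRNA and 36.0, 30.1 and 36.6 with both. In CPM it was below its partners in all 6 pairs of the knockdown. In TPM, ephrin-B1 siRNA replicate 3 (22.9) was above Ctrl replicate 3 (20.3). The log2 difference was -0.37 (SE 0.119, adjusted p = 0.183; 0.00373 with the block) for ephrin-B1 siRNA vs Ctrl. It was -0.26 (SE 0.118, adjusted p = 0.477; 0.0339 with the block) for EphB2 + ephrin-B1 siRNA vs EphB2. FGFR1, at 53.0 to 99.1 CPM in Ctrl and 54.2 to 108 CPM with ephrin-B1 siRNA, passed no treatment test, and FGFR2 had 107 counts in all.

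Of the TAM receptors, AXL measured 1128, 1436 and 1329 CPM in Ctrl, 958, 1391 and 1191 in EphB2, 1018, 1409 and 1242 with ephrin-B1 siRNA and 983, 1250 and 1138 with both treatments. In CPM, AXL was lower than its Ctrl partner in 3 of 3 pairs in each of the other groups, and the groups overlapped. In TPM, AXL with ephrin-B1 siRNA (439, 419 and 440) was above Ctrl (395, 433 and 367) in replicates 1 and 3. EphB2 and the combined group were below Ctrl in every pair in TPM too. With both treatments the log2 difference from Ctrl was -0.21 (SE 0.159, adjusted p = 0.684; 0.00554 with the block). MERTK measured 4.49, 3.61 and 3.4 CPM in Ctrl, 3.03, 3.1 and 5.72 in EphB2, 7.78, 5.67 and 5.96 with ephrin-B1 siRNA and 6.37, 3.92 and 4.98 with both. In CPM, MERTK with ephrin-B1 siRNA lay above Ctrl without overlap (log2 0.76, SE 0.273, adjusted p = 0.253; 0.0344 with the block). In TPM the ranges overlapped, and in replicate 2 ephrin-B1 siRNA (2.07) was below Ctrl (2.27). TYRO3 was at 45.5, 42.1 and 44.5 CPM in Ctrl, 35.4, 41.1 and 38.5 in EphB2, 43.4, 43 and 40.6 with ephrin-B1 siRNA and 41.3, 34.6 and 37 with both. Between EphB2 and Ctrl it had a log2 difference of -0.20 (SE 0.0826, adjusted p = 0.619; 0.148 with the block).

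Of the ERBB receptors, ERBB2 measured 172, 141 and 142 CPM in Ctrl, 144, 130 and 143 in EphB2, 177, 158 and 171 with ephrin-B1 siRNA and 161, 133 and 151 with both. The blocked test called it higher for ephrin-B1 siRNA vs Ctrl (log2 0.16, SE 0.0967, adjusted p = 0.592; 0.046 with the block) and lower for the combined group vs ephrin-B1 siRNA (-0.19, SE 0.0967, adjusted p = 0.656; 0.036 with the block). ERBB3, which binds neuregulins and has little kinase activity of its own, measured 38.0, 45.9 and 41.9 CPM in Ctrl, 46.0, 48.2 and 47.6 in EphB2, 42.1, 41.7 and 40.6 with ephrin-B1 siRNA and 40.7, 37.4 and 41.6 with both. In CPM, its 3 EphB2 libraries were the highest of the 12, by as little as 46.0 against 45.9 in Ctrl replicate 2. In TPM, EphB2 + ephrin-B1 siRNA replicate 3 (25.6) was above all EphB2 libraries (19.5 to 22.1). The log2 difference between the combined group and EphB2 was -0.24 (SE 0.0767, adjusted p = 0.229; 0.0346 with the block). EGFR was at 130 to 171 CPM in Ctrl and 147 to 202 CPM in EphB2 and passed no treatment test.

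Of the Wnt-linked receptors, RYK measured 41.0, 56.5 and 47.9 CPM in Ctrl, 38.6, 59.6 and 44.9 in EphB2, 54.2, 76.0 and 50 with ephrin-B1 siRNA and 57.2, 61.8 and 76.0 with both. In CPM, the combined group lay above Ctrl without overlap (log2 0.42, SE 0.196, adjusted p = 0.394; 0.0233 with the block). In TPM the ranges overlapped, and in replicate 1 the combined group (31.6) was below Ctrl (36.4). ROR2 measured 10.3, 16.3 and 13.1 CPM in Ctrl, 11.7, 16.3 and 13.2 in EphB2, 12.4, 19.9 and 17.5 with ephrin-B1 siRNA and 11.5, 19 and 14.6 with both. With ephrin-B1 siRNA it was above Ctrl in 3 of 3 pairs, and the groups overlapped (log2 0.32, SE 0.234, adjusted p = 0.691; 0.018 with the block). PTK7 measured 369, 306 and 322 CPM in Ctrl, 345, 298 and 326 in EphB2, 399, 331 and 366 with ephrin-B1 siRNA and 382, 294 and 349 with both, and passed neither edgeR test for ephrin-B1 siRNA vs Ctrl (adjusted p = 0.746, and 0.0518 with the block).

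**Figure D4:**
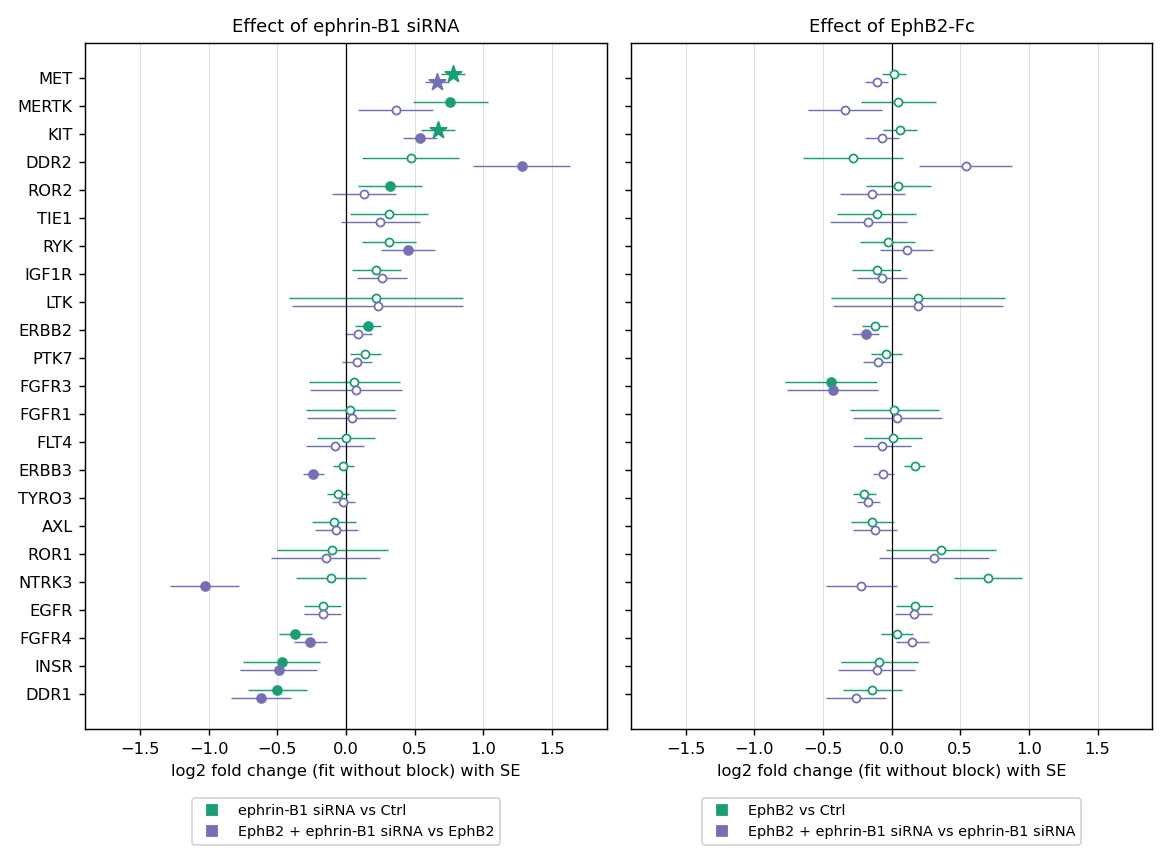
Log2 fold change of the 23 members with at least 400 counts over the 12 libraries, with its SE from the fit without a block, for the effect of ephrin-B1 siRNA (left, without and with EphB2-Fc) and of EphB2-Fc (right, without and with ephrin-B1 siRNA). Stars passed the test without the block, filled circles with the block only and open circles neither, and MET and KIT carry the 3 stars.

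For EphB2-Fc itself, edgeR over all libraries and DESeq2 without a block called no larger share of members than of all genes. For EphB2 vs Ctrl, 0 of 34 members passed the edgeR test (background: 0.037%, 8 genes) and 0 passed DESeq2, which called 205 genes. At an unadjusted p under 0.05, 3 members (NTRK3, TYRO3 and ERBB3) stood out, where 7.56% of all genes did. With the block 1 member passed, FGFR3 (background: 5.34%). The ranges of 4 members did not overlap, where 12.6% of all genes had such ranges. The summed TPM of the 11 microglial markers was 23.4 to 28.7 in Ctrl and 32 to 37.7 in EphB2, and that of the 8 fibroblast markers 1235 to 1483 and 836 to 1197. Most of each sum came from a single gene, CD68 (18.9 to 32.1 TPM over the 12 libraries) and COL1A1 (662 to 1203 TPM). The part of these markers in the values of the members was not tested. Between the combined group and ephrin-B1 siRNA, 0 of 34 members passed edgeR (background: 0.116%) or DESeq2, 1 had an unadjusted p under 0.05 (FGFR2, 0.049), and 2 passed with the block, ERBB2 and FGFR3, both lower (background: 6.93%). The ranges of 0 members were apart there, where those of 14.6% of all genes were.

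NTRK3, the receptor of neurotrophin-3, had the smallest p among members for EphB2-Fc. It measured 1.57, 1.96 and 1.67 CPM in Ctrl, 3.43, 2.15 and 2.93 in EphB2, 2.10, 1.40 and 1.35 with ephrin-B1 siRNA and 1.18, 1.46 and 1.56 with both. In CPM, the EphB2 libraries were the highest 3 of the 12. In TPM, ephrin-B1 siRNA replicate 1 (0.271) was above EphB2 replicate 2 (0.214). The log2 difference was 0.70 (SE 0.248, adjusted p = 0.526; 0.139 with the block) for EphB2 vs Ctrl and -1.03 (SE 0.253, adjusted p = 0.114; 0.0175 with the block) for the combined group vs EphB2. The interaction, the change of the EphB2-Fc effect with the knockdown, was -0.93 for NTRK3 (SE 0.358, unadjusted p = 0.0249, adjusted p = 1). No interaction passed edgeR among 34 members or 21601 genes (background: 0%, with 498 genes at an unadjusted p under 0.05), DESeq2 called 2 genes and no member, and with the block 1 gene was called (background: 0.00463%) and no member.

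More members differed between experiments than between treatments. In the blocked fit, replicate 2 differed from replicate 1 in 19 of 34 members, 9 higher and 10 lower (background: 36.4%, with 18.4% higher and 17.9% lower). FGFR1 measured 53.0, 55.9, 54.2 and 57.6 CPM in the 4 libraries of replicate 1 and 99.1, 104, 108 and 112 CPM in those of replicate 2, with replicate 3 between them at 89.6, 86.6, 84.9 and 84.4 CPM, each in the order Ctrl, EphB2, ephrin-B1 siRNA and both. The difference was 0.93 on the log2 scale (SE 0.0449, adjusted p = 1.74e-09), larger than any treatment effect on a member with over 1000 counts. FGFR3 went the other way (-0.95, SE 0.0655), while INSR (0.76), ROR2 (0.64), FLT4 (0.58) and AXL (0.43) were higher in replicate 2 and LTK (-1.74), ROR1 (-1.02) and DDR1 (-0.59) lower.

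NTRK2, the receptor of BDNF, was at 2.92, 2.29, 3.47 and 1.77 CPM in replicate 1 and 0.413, 0.19, 0.351 and 0.0585 CPM in replicate 2, a log2 difference of -3.35 (SE 0.391). RET, the GDNF receptor, was lower in replicate 2 as well (-1.95, SE 0.42), on 106 counts in all. MET had the smallest difference among the 14 members above 10 TPM, 0.01 (SE 0.0618, adjusted p = 0.966).

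**Figure D5:**
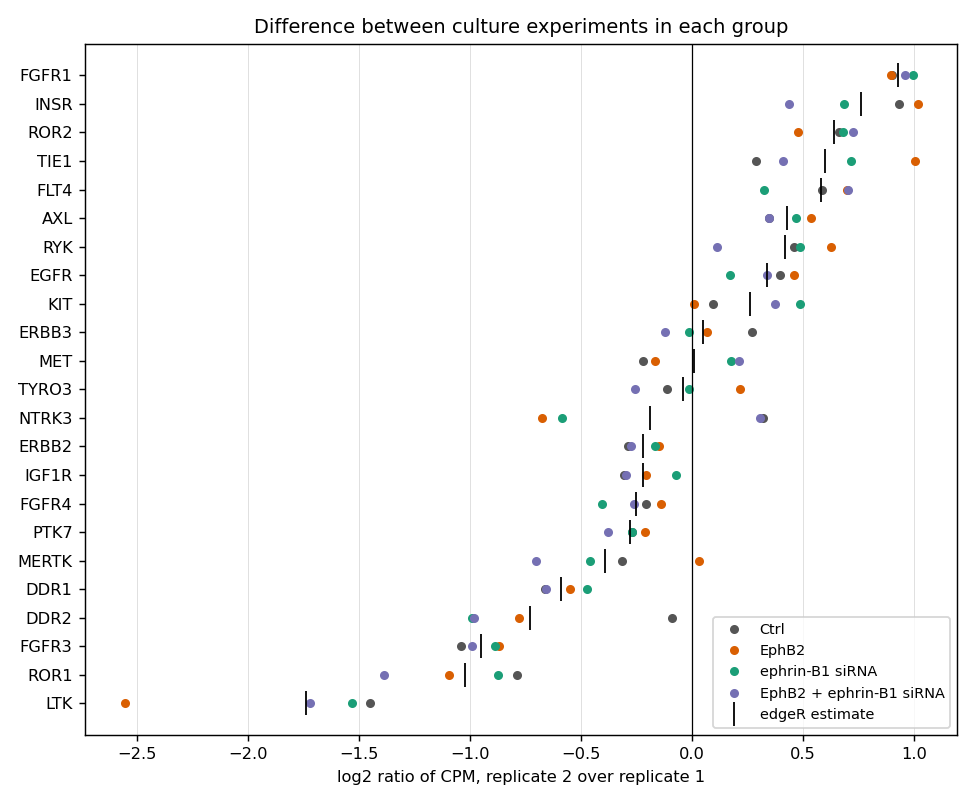
Log2 ratio of CPM of replicate 2 over replicate 1 for the same 23 members, 1 point for each group, with a black tick at the edgeR estimate. In FGFR1 all 4 groups lie near the estimate of 0.93 and in FGFR3 near -0.95, whereas those of MET lie on either side of 0.

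Ligands, co-receptors and adaptors were counted from 3 lists, against the shares over all genes of 1.81% without and 13.6% with the block for ephrin-B1 siRNA vs Ctrl and of 0.037% and 5.34% for EphB2 vs Ctrl. Of 60 ligand genes 52 were tested, and with ephrin-B1 siRNA against Ctrl 0 rose and 2 fell, which is 3.85% (median log2 fold change -0.08, against -0.003 for all genes; 2 rose and 15 fell with the block, 32.7%). These were VEGFA (119 ± 15.7 to 80.9 ± 5.83 CPM, log2 -0.55, adjusted p = 0.0129) and PDGFB (24.6 ± 0.739 to 13.6 ± 2.17 CPM, log2 -0.85, adjusted p = 0.035), both growth factors of blood vessels. For EphB2 vs Ctrl no ligand passed without the block, and 5 rose and 7 fell with it (23.1%), with VEGFC, a ligand of FLT4 (29.9 ± 1.77 to 39.2 ± 1.58 CPM, log2 0.39, adjusted p = 0.208; 0.00235 with the block), and IGF2 (481 ± 21.5 to 367 ± 42.4 CPM, log2 -0.39, adjusted p = 0.216; 0.000612 with the block) at the smallest p. COL1A1, a chain of the collagen that the discoidin domain receptors bind, had a level of 2796 ± 160 CPM after EphB2, against 3548 ± 75.2 CPM without it (log2 fold change -0.34, adjusted p = 0.238; 0.000674 with the block). GDF15, which signals through RET and GFRAL, measured 18.5 ± 2.49 CPM in Ctrl and 25.6 ± 1.42 CPM with ephrin-B1 siRNA (log2 0.47, adjusted p = 0.061; 0.00514 with the block).

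The ligands of the 2 members that rose were scarce: HGF, the ligand of MET, had 9 counts in all 12 libraries, and KITLG lay at 2.61 ± 1.42 TPM in Ctrl. GAS6, the ligand of AXL, lay at 31.2 ± 3.43 TPM and COL1A1 at 1026 ± 66.9 TPM.

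Of 25 co-receptors 21 were tested, and 2 fell with ephrin-B1 siRNA against Ctrl (9.52%, background: 1.81%; median log2 fold change -0.09; 1 rose and 5 fell with the block, 28.6%, background: 13.6%). These were the neuropilins, which bind VEGF and semaphorins: NRP1 fell from 96.1 ± 3.2 to 69.5 ± 0.545 CPM (log2 -0.47, adjusted p = 0.0041) and NRP2 from 32.5 ± 6.11 to 15.9 ± 1.71 CPM (log2 -1.03, adjusted p = 0.00586). CD44, the hyaluronan receptor that also acts as a MET co-receptor, measured 752 ± 205 CPM in Ctrl and 429 ± 77.6 CPM with ephrin-B1 siRNA (log2 -0.81, adjusted p = 0.157; 2e-06 with the block). The proteoglycan GPC6 (8.59 ± 1.4 and 4.34 ± 1.94 CPM, log2 -0.98, adjusted p = 0.184; 0.000742 with the block) and LRP4, the agrin receptor that pairs with MUSK (50.2 ± 3 and 41.1 ± 3.24 CPM, log2 -0.29, adjusted p = 0.232; 0.0335 with the block), were lower with ephrin-B1 siRNA in 3 of 3 pairs. For EphB2 vs Ctrl 0 of 21 passed (background: 0.037%), and 5 fell with the block (23.8%, background: 5.34%), with GPC1 at the smallest p (85.9 ± 11.7 and 65.3 ± 5.23 CPM, log2 -0.39, adjusted p = 0.371; 0.000972 with the block).

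Of 55 adaptors and regulators 54 were tested, and 1 rose with ephrin-B1 siRNA against Ctrl (1.85%, near the background of 1.81%; median -0.05; 6 rose and 12 fell with the block, 33.3%, background: 13.6%). It was CRK, an adaptor that links phosphotyrosine to small GTPases, at 117 ± 10.9 CPM in Ctrl and 152 ± 3.32 CPM with ephrin-B1 siRNA (log2 0.38, adjusted p = 0.0395). PTPN1, a phosphatase of INSR, MET and others, measured 222 ± 33.9 and 329 ± 21 CPM (log2 0.57, adjusted p = 0.0571; 1.4e-05 with the block), and IRS1, the insulin receptor substrate, 334 ± 24.2 and 238 ± 3.83 CPM (log2 -0.49, adjusted p = 0.0575; 0.00169 with the block). The RAS exchange factor SOS2 (64.3 ± 3.88 and 86.5 ± 10.5 CPM, log2 0.43, adjusted p = 0.056; 0.000121 with the block) and FRS3, a docking protein of FGF receptors (16 ± 0.479 and 20.2 ± 0.897 CPM, log2 0.33, adjusted p = 0.143; 0.0114 with the block), were higher in 3 of 3 pairs. For EphB2 vs Ctrl 0 of 54 passed (background: 0.037%), and with the block (3.7%, background: 5.34%) the phosphatase PTPN2 rose (22.2 ± 0.663 to 27.3 ± 0.739 CPM, log2 0.30, adjusted p = 0.281; 0.0175 with the block) and RASA1, a GTPase-activating protein of RAS, fell (110 ± 16.3 to 97.3 ± 11.1 CPM, log2 -0.18, adjusted p = 0.878; 0.0407 with the block). PLCG2 was the most abundant of this list, at 910 ± 48 TPM in Ctrl.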

How the data were processed

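The 12 libraries of HMC3 RNA form 4 groups of 3 by the sample labels. The authors ran kallisto (version not given in the sources used here) against the Ensembl 109 cDNA of GRCh38. The estimated counts per transcript are as deposited by the authors, without normalization. Kallisto's TPM, also as deposited by the authors, scales these counts by effective transcript length.

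Each table listed 188753 transcripts. GENCODE 44 placed 167067 of them (88.5%) in 36315 genes, and 21686 were not used here. A gene's value is the rounded sum of the estimated counts of its transcripts. The 21601 genes that reached 10 counts in total entered the quasi-likelihood test of edgeR 4.0.16 (TMM, all 4 groups in 1 fit, no block, Benjamini-Hochberg adjustment over all genes, threshold 0.05). Every unnamed p comes from it. ± gives the SD over a group's libraries and SE the standard error from the fit, and different genes were compared in TPM. A gene was compared between groups in CPM, which is not scaled by transcript length.

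A replicate number stands for 1 experiment number in the submitted file names, so the numbers were taken to pair the libraries, and an adjusted p with the block comes from the same test with the replicate number as a term. Deviations from group means were taken over 10145 genes with a mean of at least 10 CPM. They correlated at 0.74 to 0.81 among libraries of replicate 1, at 0.77 to 0.82 for the second number and at 0.05 to 0.38 for the third. A number that lies between the others deviates little from group means, so the low values do not decide whether its libraries share an effect. Without the block the biological coefficient of variation was 0.182 (8 residual degrees of freedom), and it was 0.0649 (6) when the block was included. Both fits were run on a single set of simulated data with a shared effect in every replicate number. The false share of the blocked calls was above the threshold there, and a single draw does not give an error rate.

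Per-library values are given for members called in any treatment comparison with or without the block over all libraries, those with an unadjusted p under 0.05 in EphB2 vs Ctrl or ephrin-B1 siRNA vs Ctrl, and the 8 most abundant. From the other lists, up to 6 genes called in these comparisons with or without the block are named by smallest p, and HGF, KITLG, GAS6, RASA1 and PLCG2 were chosen after their values were seen. The members and lists were chosen with earlier results of these data known. Coding stretches were read from the GENCODE 44 transcripts, with GRCh38 coordinates, and promoters from RefSeq. Protein sequences were not analysed here. Alternatives were DESeq2 1.42.0, limma 3.58.1 on log2 of TPM with a pseudocount of 1 or 0.1, other filters and scalings, only the groups compared, an offset for transcript length, and leaving out libraries. R 4.3.3, Python 3.11.15, numpy 2.4.6, pandas 2.3.3 and matplotlib 3.10.9 were used. The limit for a count of 0 is 3 counts and covers counting error only.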

Additional observations from a re-analysis of the deposited data

How the results depend on the processing

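The number of members called depended on the block and on single libraries. Beside each count of members, the number of all genes called stands in brackets. For EphB2 vs Ctrl the count of members was 0 (8), and 1 (1153) with the replicate block. It was 1 (140) with the replicate block without replicate 3 in all groups and 2 (1111) with DESeq2 with the block. The block without replicate 3, DESeq2 with the block and the length offset were added after the data were seen. For ephrin-B1 siRNA vs Ctrl it was 2 (391), and 8 (2931), 5 (830) and 9 (2441) under the same 3 settings. It was 0 (0) with limma on log2(TPM + 1) and 0 (1) on log2(TPM + 0.1). With only the groups compared it was 1 (88), and with the offset for transcript length 1 (121). For EphB2 + ephrin-B1 siRNA vs Ctrl it was 2 (434), and 8 (3261), 4 (1167) and 8 (2741), then 0 (4), 0 (8), 1 (93) and 1 (125). For EphB2 + ephrin-B1 siRNA vs EphB2 it was 1 (133), and 9 (2146), 4 (333) and 5 (1819), then 0 (2), 0 (3), 0 (0) and 0 (21). DESeq2 without a block called 3 members (660) there, MET, KIT and DDR2. For the combined group vs ephrin-B1 siRNA it was 0 (25), and 2 (1496) with the replicate block and 3 (1278) with DESeq2 with the block. The interaction stayed at 0 members under every alternative run. Leaving out 1 library or 1 replicate number gave 0 to 2 members for both comparisons with Ctrl that involve the siRNA and for EphB2 + ephrin-B1 siRNA vs EphB2, 0 for the other treatment comparisons, and 17 to 20 for replicate 2 vs replicate 1. The cause was not tested. Single members were followed for the 35 results with an unadjusted p under 0.05, or an adjusted p under 0.05 with the block. Of their 909 values under the alternatives, 816 stayed on their side of the threshold, 42 lost and 51 gained a call, and 0 changed direction. These results were picked from the same data, so the stable direction is no separate support. Without replicate 3 in any group, the blocked fit still called MET (adjusted p = 0.0044) and KIT (0.0147) for ephrin-B1 siRNA vs Ctrl. The top transcript of 29 of 34 members was the same by counts and by TPM. Members under 1 TPM are limited by depth.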
